A study of Mus musculus with 8 samples.

Results

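Kit, ErbB and other growth factor receptor kinases were examined with their ligands as a set of 10 genes among the 25239 gene symbols counted in E14.5 mouse ovaries. The set held 8 receptors (*Kit*, *Egfr*, *Erbb2*, *Erbb3*, *Erbb4*, *Met*, *Igf1r* and *Insr*) and 2 ligands (*Kitl* and *Nrg1*), and all 10 symbols were found. *Kit* and *Erbb3* were chosen by their higher counts in the mutant in these same libraries, so their difference between genotypes is given as a description with no test. The other 8 genes were taken for their place in these pathways, and 7 of them had enough reads to be tested.

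RNA-Seq libraries were made from whole fetal ovaries of C57BL/6 embryos, with 4 libraries for each genotype and the ovary pairs of 2 embryos in each library. Controls were *Bmpr1a fl/fl*, and mutants (*Bmpr1a*-cKO) were *Bmpr1a fl/fl; Oct4-Cre Cre/WT*, so both carried the floxed alleles and only the mutants carried the Cre. Pregnant females received 1 mg of 4-hydroxy tamoxifen and 0.5 mg of progesterone daily from 9.5 to 11.5 dpc, and embryos of both genotypes were exposed to both agents. The Cre is driven by *Oct4* and acts in germ cells, and the somatic cells of the ovary keep the BMP receptor gene. Controls were littermates of the mutants. The 8 embryos of each genotype came from 6 litters, and the litter of each library is not given, so the libraries differ by animals, litter and preparation together. In bulk tissue, fewer cells of a type and less RNA per cell cannot be told apart.

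Receptor tyrosine kinases span the cell membrane, bind a growth factor outside the cell and phosphorylate tyrosines inside it, which starts the PI3K-AKT and RAS-ERK cascades. In the fetal ovary KIT sits on primordial germ cells and oogonia, and its ligand KITL (stem cell factor) is made by the somatic cells around them, a pairing needed for germ cell migration, survival and growth. The ErbB receptors work as pairs: ERBB2 binds no known ligand of its own, ERBB3 binds neuregulins but has a weak kinase, and EGFR and ERBB4 both bind ligand and signal. MET is the receptor of hepatocyte growth factor, and IGF1R and INSR are the receptors of the insulin-like growth factors and insulin.

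Total counts per library ran from 8562961 to 15365052, and *Rn45s*, the 45S pre-ribosomal RNA, took 13.1% to 16.7% of them. *Bmpr1a*, the targeted gene, had 199, 237, 220.5 and 216 CPM (reads of a gene scaled to a common library size, with TMM) among controls, and mutants had 185, 195, 189.8 and 209 CPM (Log2FC of -0.16, FDR = 0.0692 by edgeR); counts are per gene, so this does not check the deletion. Markers of pregranulosa cells, the supporting cells of the fetal ovary, were all present and summed to 843 to 914 CPM in control and 624 to 778 CPM in mutant libraries. Of these, 7 of 7 were lower in the mutants at an FDR below 0.05, where 12.5% of all 14249 genes tested were lower and 17.3% higher. Germ cell markers (6 of 7 listed were in the files) summed to 595 to 784 CPM in control and 627 to 1008 CPM in mutant libraries. Of these 6, *Dazl* and *Dnd1* were higher and *Mael* lower at that threshold, and *Ddx4* (*Mvh*) had a Log2FC of 0.11 (FDR = 0.561 by edgeR).

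The stretch of DNA just before the first annotated base of *Kit*, of *Egfr* and of *Erbb2* is shown because these genes stand for the 3 patterns that follow, a rise, a fall and a smaller difference. A window was held for 7 of the 10 genes in the RefSeq set (GRCm38.p6), with none for *Erbb3*, *Nrg1* and *Insr*, and 4 windows kept at least 150 bases once transcribed bases were removed. Capitals mark the GC box GGGCGG on either strand. The GC-rich SMAD1/5 element GGCGCC and the E-box CACGTG were also searched on both strands. The *Kit* stretch is chr5:75574737-75574915 (179 bases, 69.3% G or C), that of *Egfr* chr11:16751953-16752202 (250 bases, 60.8%) and that of *Erbb2* chr11:98412234-98412469 (236 bases, 65.7%), all on the plus strand.
Kit: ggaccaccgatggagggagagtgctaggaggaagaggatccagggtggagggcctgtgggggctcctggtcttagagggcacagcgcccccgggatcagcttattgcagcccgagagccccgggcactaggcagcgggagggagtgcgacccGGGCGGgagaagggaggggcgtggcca
Egfr: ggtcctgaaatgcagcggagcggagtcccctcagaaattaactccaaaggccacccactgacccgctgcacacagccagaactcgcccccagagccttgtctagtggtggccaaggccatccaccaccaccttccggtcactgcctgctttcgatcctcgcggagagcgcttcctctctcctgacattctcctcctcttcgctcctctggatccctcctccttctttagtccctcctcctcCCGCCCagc
Erbb2: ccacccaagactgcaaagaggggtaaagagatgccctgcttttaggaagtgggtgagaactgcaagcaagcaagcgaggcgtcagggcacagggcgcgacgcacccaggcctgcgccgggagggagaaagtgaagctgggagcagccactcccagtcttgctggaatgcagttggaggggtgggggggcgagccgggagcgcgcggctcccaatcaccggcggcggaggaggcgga
*Kit* and *Egfr* each held 1 GC box, *Erbb2* held 0, and *Igf1r* held 2 in chr7:67952007-67952256. For comparison, 32817 promoter windows were cut to the same lengths, without removing transcribed bases. Of these, 20.9% held a GC box at the length used for *Kit*, 32.7% at that used for *Egfr* and *Igf1r*, and 30.8% at that used for *Erbb2*. The letters GGCGCC and CACGTG were in none of these 4 stretches, and 9.59% and 6.02% of the windows of 250 bases held them.

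*Kit*, on chromosome 5 from 75574916 to 75656722 in mm10, reached 77.9, 87.1, 102 and 78.8 CPM across the 4 controls, against 135, 158, 151 and 157 CPM across the 4 *Bmpr1a*-cKO libraries. Every mutant library was above every control library, as was so for 16.1% of all 14249 genes tested, and the lowest mutant value was that of replicate 1. The means were 86.5 ± 11.3 and 150.2 ± 10.3 CPM (SD, n = 4 each), which is 1.74-fold in the fit across all genes (Log2FC of 0.80). With 1 library left out in turn, the Log2FC of *Kit* ran from 0.75 to 0.88.

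*Kit* was also set beside the germ cell markers of the same library. *Dazl* was the largest of these markers in every library, and it was higher in the mutants (Log2FC of 0.63, FDR = 0.00101 by edgeR). For 100 CPM of those markers the controls held 13.1, 12.7, 13.1 and 13.2 CPM of *Kit*, and the mutants held 21.6, 18.2, 17.3 and 15.5 CPM. The controls were close together on this scale although their marker sums differed, and the mutants were all higher, with replicate 1, which had the lowest marker sum of the mutants, at the top. Against *Ddx4* alone, *Kit* stood at 57.6 to 65.4 CPM for 100 CPM of *Ddx4* in control and at 87.5 to 128 CPM in mutant libraries. Mast cells, which also carry KIT, were followed by 8 markers that summed to 13.9 to 24.2 CPM in control and 9.74 to 16.7 CPM in mutant libraries. Of the 4 with enough reads to test, only *Hdc*, the histidine decarboxylase gene, was higher in the mutants (Log2FC of 0.48, FDR = 0.0299 by edgeR). *Cpa3* and *Tpsb2* had a Log2FC of -0.79 and -0.85 and did not pass the test (FDR = 0.0630 and 0.152 by edgeR). *Cma1*, a mast cell protease, was lower in the mutants (Log2FC of -1.14, FDR = 0.0143 by edgeR), and *Fcer1a*, which encodes a chain of the IgE receptor, had no read in any library.

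**Figure D1:**
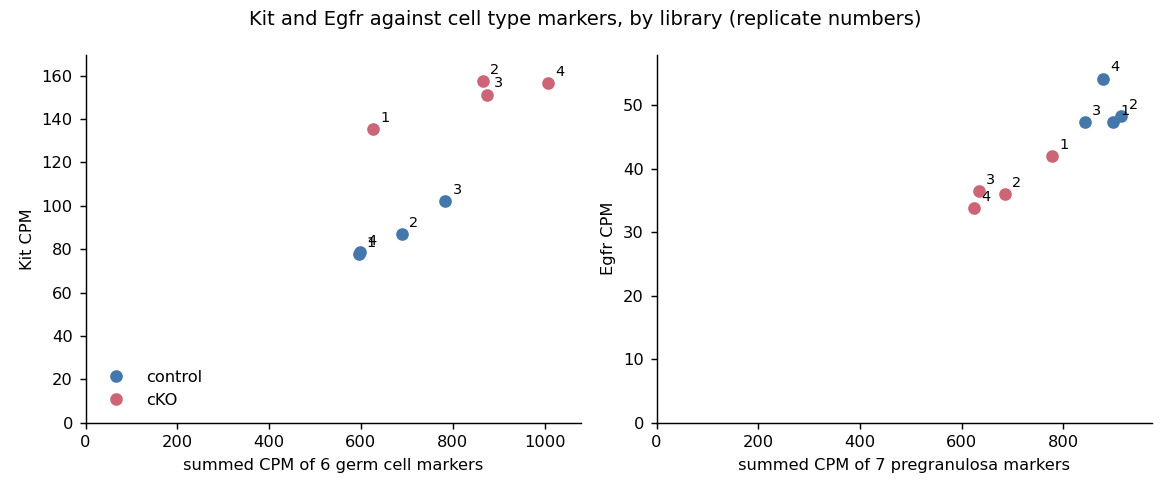
CPM of Kit against the summed CPM of 6 germ cell markers (left) and CPM of Egfr against the summed CPM of 7 pregranulosa markers (right), with 1 point for each library and its replicate number, controls in blue and Bmpr1a-cKO in red. Kit lies higher in mutant replicate 1 than in control replicate 1 at a like marker sum (135 CPM at 627 against 77.9 CPM at 595). The makeup of the sum differed between them: Dazl was at 382 CPM in that mutant and 282 CPM in that control library, and Ddx4 at 106 and 128 CPM. The other mutant libraries have germ cell marker sums above those of all controls. Egfr and the pregranulosa sum are both lower in all 4 mutant libraries.

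*Kitl*, on chromosome 10 from 100015630 to 100100416, had 612, 736, 532 and 655 CPM among controls, and the mutants had 609.6, 589, 532 and 592 CPM. The genotypes overlapped, and the spread was wider among the controls. The Log2FC was -0.13 with a 95% interval from -0.31 to 0.05 (FDR = 0.290 by edgeR), so no difference was detectable at this spread. The ratio of *Kitl* to *Kit* counts within a library, in which the scaling of libraries cancels, was 7.84, 8.43, 5.19 and 8.30 in control and 4.499, 3.74, 3.51 and 3.77 in mutant libraries. Its geometric mean went from 7.31 to 3.86, and the ratio in control replicate 3 lay nearest to the mutants. This ratio holds *Kit*, which was chosen in the same contrast, and is therefore not tested.

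*Erbb3*, on chromosome 10 from 128567523 to 128589652, had the largest Log2FC of the 9 genes that could be fitted. It had 7.24, 6.02, 9.18 and 7.26 CPM in control and 31.6, 33.4, 35.5 and 35.0 CPM in *Bmpr1a*-cKO libraries, from 68 to 115 reads in control and 265 to 513 reads in mutant libraries. The lowest mutant library was far above the highest control library, and the mutant libraries were close to each other. The means were 7.42 ± 1.30 and 33.9 ± 1.76 CPM (SD, n = 4 each), which is 4.58-fold (Log2FC of 2.20, and 2.11 to 2.29 with 1 library left out). For 100 CPM of germ cell markers, *Erbb3* stood at 0.874 to 1.22 CPM in control and at 3.47 to 5.04 CPM in mutant libraries. For 100 CPM of *Ddx4* alone, it stood at 3.98 to 6.02 CPM in control and at 19.5 to 29.8 CPM in mutant libraries.

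ERBB3 is also found on neural crest and Schwann cells, whose 10 listed markers summed to 108 to 119 CPM in control and 136 to 141 CPM in *Bmpr1a*-cKO libraries. Of these, *Sox10* and *Foxd3*, which define those cells, were at 3 reads or fewer in every library. The sum moved with *Mbp*, the gene of myelin basic protein, which went from 18.2 ± 1.76 to 46.1 ± 2.97 CPM (SD, n = 4 each; Log2FC of 1.35, FDR = 4.18e-08 by edgeR), and *Tfap2a* was lower (Log2FC of -1.65, FDR = 0.00145 by edgeR). *Ngfr* made up most of the sum and had a Log2FC of -0.08 (FDR = 0.401 by edgeR).

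*Nrg1*, the neuregulin that ERBB3 and ERBB4 bind, lies on chromosome 8 from 31814551 to 32884029 and had 15.2, 12.7, 11.7 and 16.5 CPM in control and 15.1, 13.2, 10.6 and 9.07 CPM in *Bmpr1a*-cKO libraries. The genotypes overlapped over most of their range. The Log2FC was -0.25 with a 95% interval from -0.58 to 0.07 (FDR = 0.234 by edgeR). *Nrg1* reads exceeded *Erbb3* reads in all 4 controls, with a ratio of 2.08, 2.07, 1.27 and 2.26, and were fewer in all 4 mutants, with a ratio of 0.483, 0.397, 0.302 and 0.262. As the ratio is of reads and not per length, it compares the genotypes and not the amounts of the 2 transcripts, and it is not tested because it holds *Erbb3*. *Gm26578* overlaps exons of *Nrg1* on the opposite strand, and whether the counting used strand is not stated.

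**Figure D2:**
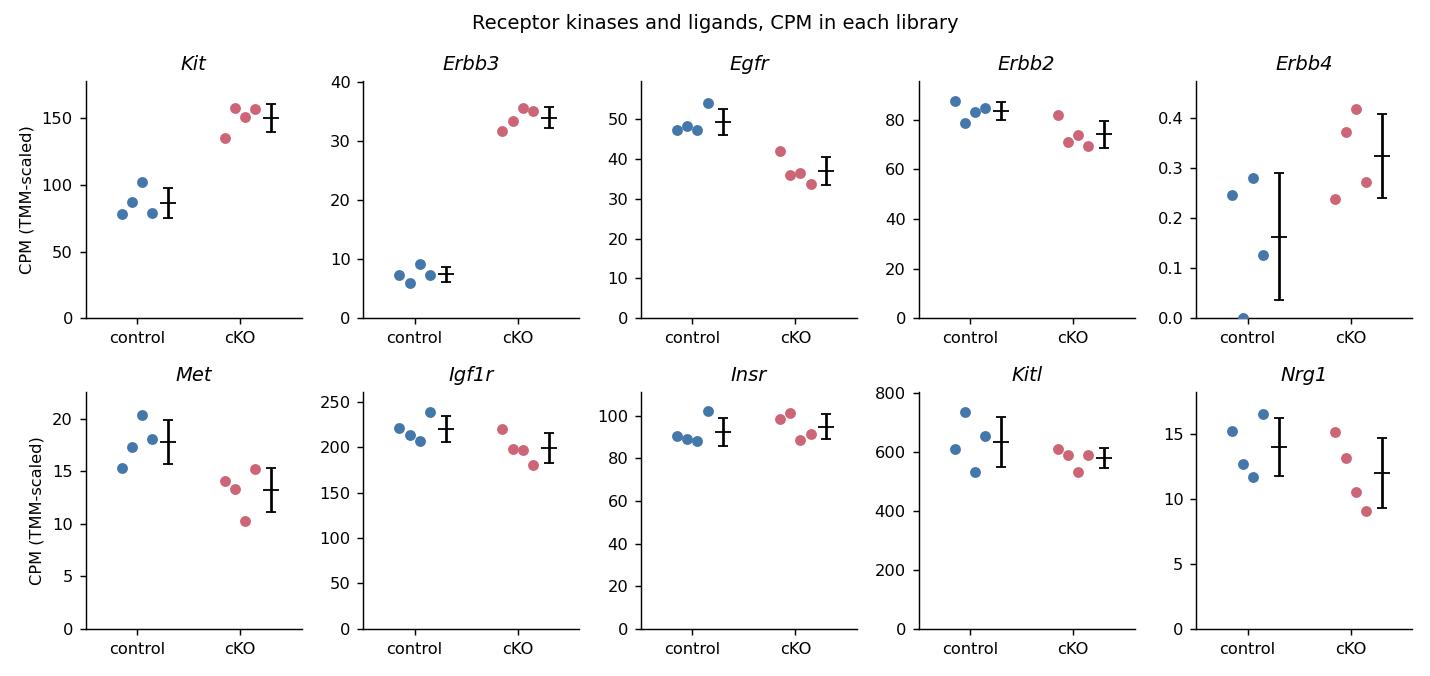
CPM of the 10 genes in each library (points, replicates 1 to 4 from left to right in each group), with the mean and SD of 4 libraries to the right of each group and each vertical axis starting at 0. Kit and Erbb3 are separated upwards in Bmpr1a-cKO, Egfr and Met are separated downwards, and the other 6 genes overlap between the genotypes.

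Of the 7 tested genes that were not chosen for a rise, *Egfr* and *Met* fell in *Bmpr1a*-cKO ovaries and 5 did not pass the test (FDR below 0.05). That is 28.6% of the 7, where 29.8% of all 14249 genes tested passed in either direction and 12.5% passed as lower and 17.3% as higher, so the share is no more than the background. No tested gene among these 7 was a DEG (absolute Log2FC above 0.5 with an FDR below 0.05), a call that 10.2% of all genes received (6.11% as higher and 4.06% as lower). For *Egfr* and *Met* the libraries did not overlap between genotypes, as was so for 27.9% of all genes tested and, in the lower direction, for 11.7%.

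*Egfr*, on chromosome 11 from 16752203 to 16918158, had 47.4, 48.4, 47.4 and 54.2 CPM in control and 42.0, 36.0, 36.4 and 33.8 CPM in *Bmpr1a*-cKO libraries. The controls were close together apart from replicate 4, and all 4 mutants lay below them. The Log2FC was -0.42 (standard error 0.079, 95% interval from -0.59 to -0.25, FDR = 0.000901 by edgeR), and the call held without any 1 library, with an FDR of at most 0.00548. *Egfr* stood at 75.1% of its control level. For 100 CPM of pregranulosa markers, however, *Egfr* stood at 5.27, 5.29, 5.62 and 6.17 CPM in control and at 5.40, 5.25, 5.75 and 5.42 CPM in mutant libraries, which overlap. Scaling to those markers, an alternative added after the data were seen, moved all genes alike and brought their median Log2FC to 0.39. On that scale the Log2FC of *Egfr* was -0.03 (FDR = 0.766 by edgeR), and scaled to germ cell markers it was -0.46 (FDR = 0.225 by edgeR).

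*Met*, on chromosome 6 from 17463800 to 17573980, had 15.4, 17.4, 20.4 and 18.0 CPM in control and 14.1, 13.3, 10.3 and 15.2 CPM in *Bmpr1a*-cKO libraries. The highest mutant and the lowest control library were nearly level. The Log2FC was -0.42 (standard error 0.12, 95% interval from -0.68 to -0.16, FDR = 0.0169 by edgeR), and without *Bmpr1a*-cKO library 3 it was -0.32 and no longer past the threshold (FDR = 0.0543 by edgeR). For 100 CPM of pregranulosa markers, *Met* stood at 1.71 to 2.42 CPM in control and at 1.62 to 2.44 CPM in mutant libraries, and its Log2FC was -0.03 on that scaling (FDR = 0.855 by edgeR). Mutant library 4, with the lowest marker sum (624 CPM), had the most *Met* of the mutants. Control library 3, with the lowest sum of the controls (843 CPM), had the most *Met* of the controls. In mutant libraries 1, 2 and 3, *Met* went down with the marker sum (778, 686 and 634 CPM). Whether *Met* follows these markers within a genotype was not tested. With germ cell marker scaling the Log2FC of *Met* was -0.48 (FDR = 0.245 by edgeR). Its ligand gene *Hgf* was low, 2.41 ± 0.446 CPM among controls against 3.24 ± 0.532 CPM among mutants (SD, n = 4 each; Log2FC of 0.40, FDR = 0.157 by edgeR).

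*Erbb2*, the shared partner of the other ErbB receptors, spans 98412470 to 98437716 of chromosome 11. Its level was 87.6, 78.5, 83.3 and 84.7 CPM in control and 81.9, 71.2, 73.8 and 69.3 CPM in *Bmpr1a*-cKO libraries. Only mutant replicate 1 reached into the control range. The Log2FC was -0.18 (95% interval from -0.32 to -0.04) with an FDR of 0.0545 by edgeR, just outside the threshold, and it was 0.0294 without control library 2 and 0.00929 without *Bmpr1a*-cKO library 1. The call turned on the method and on which libraries were kept. *Erbb2* was lower with an FDR below 0.05 in 11 of 20 other settings, among them DESeq2 (0.0352), limma-voom (0.0456) and the edgeR likelihood ratio test (0.0436). Under pregranulosa marker scaling the direction turned, with a Log2FC of 0.21 (FDR = 0.0282 by edgeR), below the shift of all genes. *Mien1* overlaps exons of *Erbb2* on the opposite strand. Within a library, the ratio of *Egfr* to *Erbb2* was 0.542, 0.616, 0.570 and 0.641 in control and 0.514, 0.507, 0.495 and 0.489 in mutant libraries. All mutants were lower, a difference of -0.24 on the log2 scale (p = 0.0286 in a two-sided exact permutation test, which can go no lower with 4 libraries a group, and 0.0286 with adjustment for 2 ratios), and p was 0.0571 without any 1 of the mutant libraries.

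*Erbb4*, the remaining ErbB receptor, on chromosome 1 from 68032186 to 69108059, was barely detected. It had 3, 0, 3 and 2 reads in control and 2, 5, 4 and 4 reads in *Bmpr1a*-cKO libraries, and 3 reads are 0.189 to 0.358 CPM depending on the library. At this depth no difference between the genotypes could be shown, and *Erbb4* was left out of the test. Fitted with no filter on low counts, it had an FDR of 0.344 by edgeR.

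*Igf1r*, on chromosome 7 from 67952827 to 68233668, had 222, 213, 207 and 239 CPM in control and 221, 198, 197 and 180.4 CPM in *Bmpr1a*-cKO libraries. Replicate 1 of the mutants lay within the control range and the other 3 lay below it. The Log2FC was -0.15 (95% interval from -0.29 to -0.0005, FDR = 0.124 by edgeR), and the FDR was 0.0243 without *Bmpr1a*-cKO library 1. Under pregranulosa marker scaling the direction turned here too, with a Log2FC of 0.24 (FDR = 0.0102 by edgeR), again below the shift of all genes.

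*Insr*, on chromosome 8 from 3122061 to 3279617, had 90.3, 88.9, 88.1 and 102 CPM in control and 98.2, 101, 88.5 and 91.6 CPM in *Bmpr1a*-cKO libraries. The genotypes overlapped almost fully, with a Log2FC of 0.04 and a 95% interval from -0.11 to 0.18 (FDR = 0.723 by edgeR). Relative to pregranulosa markers it was higher in all 4 mutants, at 12.6 to 14.8 CPM for 100 CPM of markers against 9.72 to 11.6 CPM in control, and the scaling to these markers gave a Log2FC of 0.43 (FDR = 0.000334 by edgeR), close to the median of 0.39 that this scaling gave all genes. The ratio of *Insr* to *Igf1r* was 0.408, 0.417, 0.427 and 0.428 in control and 0.446, 0.511, 0.449 and 0.508 in mutant libraries. All mutants were higher, by 0.19 on the log2 scale (p = 0.0286 in a two-sided exact permutation test, which can go no lower with 4 libraries a group, and 0.0286 with adjustment for 2 ratios), and p was 0.0857 without any 1 of the control libraries. The ligand genes *Igf1* (Log2FC of -0.08, FDR = 0.497 by edgeR) and *Igf2* (Log2FC of -0.11, FDR = 0.237 by edgeR) did not pass the test. *Igf2* was counted at 1924 ± 151 CPM in control (SD, n = 4).

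**Figure D3:**
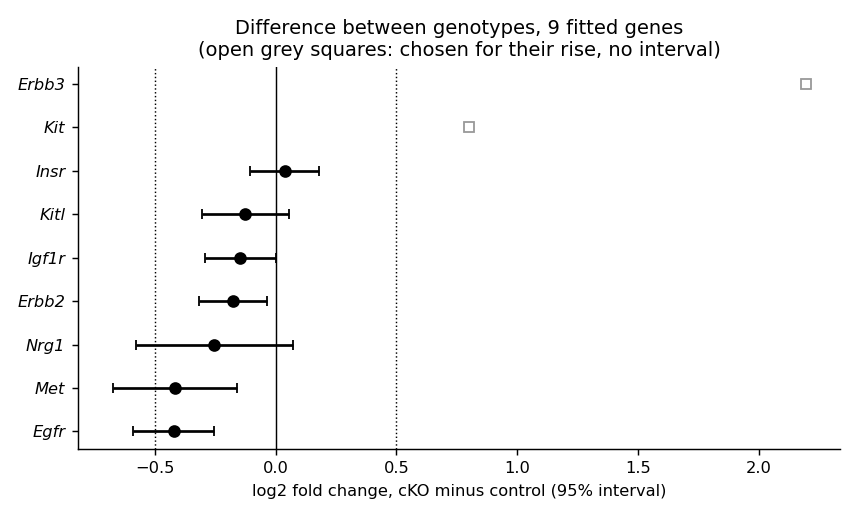
Log2 fold change of Bmpr1a-cKO against control for the 9 genes that could be fitted, with 95% intervals for the 7 not chosen for a rise, a solid line at 0 and dotted lines at the fold-change threshold of 0.5 in each direction. The intervals of Egfr and Met lie below 0 and reach past -0.5, and those of Kitl, Nrg1 and Insr include 0.

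**Figure D4:**
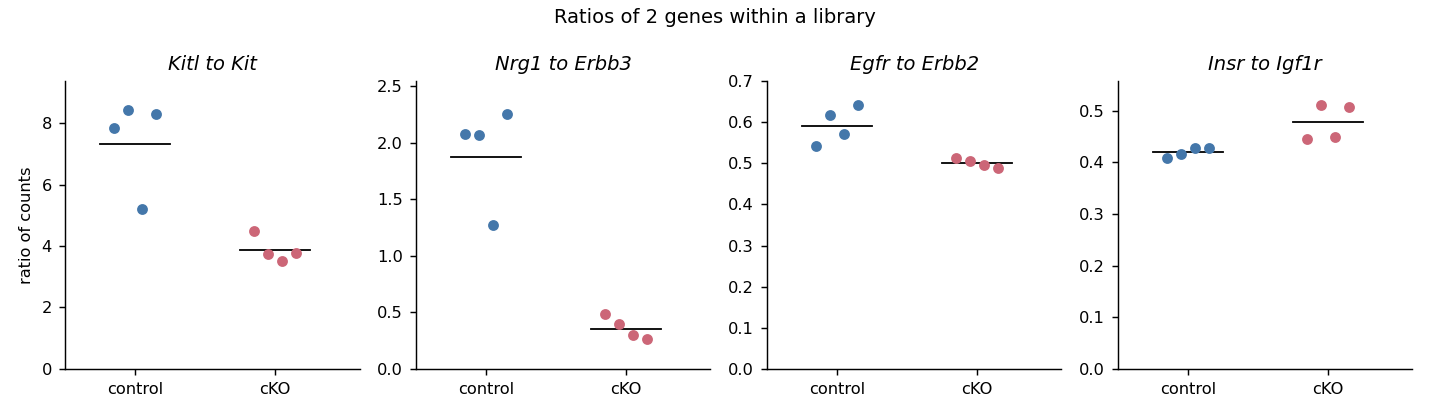
Ratio of the counts of 2 genes in each library (points, replicates 1 to 4 from left to right) with the geometric mean of each group (line), on axes that start at 0. In all 4 panels the libraries separate by genotype; the 2 on the left hold a gene chosen for its rise and are shown with no test.

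Levels of different genes were compared per length, as CPM divided by kilobases of exon (RPKM), using all annotated exons of the gene. In control ovaries *Kitl* stood highest, at 107 ± 14.4 RPKM (SD, n = 4), and 98.7% of all tested genes with a known length were at or below it. *Erbb2* (16.03 ± 0.723 RPKM) and *Igf1r* (13.1 ± 0.8291 RPKM) followed, then *Kit* (9.71 ± 1.27 RPKM), *Insr* (6.72 ± 0.480 RPKM) and *Egfr* (4.36 ± 0.290 RPKM). *Met* (2.32 ± 0.271 RPKM) came before *Nrg1* (1.36 ± 0.216 RPKM) and *Erbb3* (1.23 ± 0.217 RPKM), and *Erbb4* was at the limit of detection. Neighbours in this order did not overlap between libraries, except *Nrg1* and *Erbb3*.

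In *Bmpr1a*-cKO ovaries the order of levels was different at 2 places. *Kit* stood at 16.9 ± 1.16 RPKM, above *Igf1r* (11.9 ± 0.981 RPKM) with no overlap of libraries. The mean of *Kit* was also above that of *Erbb2* (14.2 ± 1.07 RPKM), but the libraries of these 2 genes overlapped. *Erbb3* stood at 5.63 ± 0.293 RPKM, above *Egfr* (3.27 ± 0.306 RPKM) and below *Insr* (6.90 ± 0.429 RPKM). *Erbb3* was thus below *Egfr* in every control library and above it in every mutant library. *Kitl* remained the highest, at 98.2 ± 5.73 RPKM. The libraries of *Met* and *Nrg1* overlapped in the mutants. Lengths span all annotated isoforms, which can set RPKM too low for genes such as *Nrg1* that use few of their exons in 1 transcript.

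**Figure D5:**
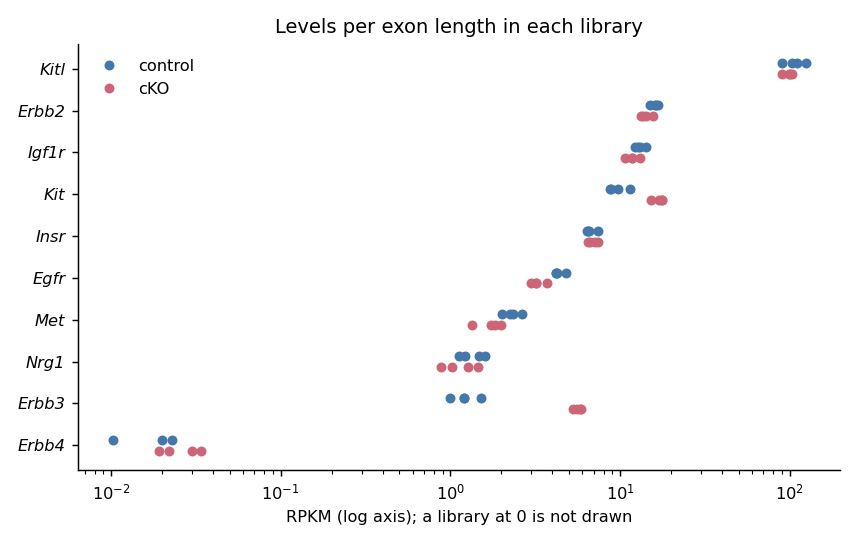
RPKM of the 10 genes in each library on a log axis, controls in blue above Bmpr1a-cKO in red, ordered by the control mean; control replicate 2 had no Erbb4 read and is not drawn there. Erbb3 lies beside Nrg1 in control and between Egfr and Insr in mutant libraries, and Kit lies beside Erbb2 in mutant libraries.

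Other ligands of these receptors did not pass the test or had too few reads. None of 6 tested ErbB ligands passed, where 29.8% of all genes tested did (median Log2FC of -0.17, where the median of all genes tested was -0.004). *Tgfa*, a ligand of EGFR, stood at 30.8 ± 0.676 CPM among controls against 28.7 ± 4.30 CPM among mutants (SD, n = 4 each; FDR = 0.411 by edgeR), and *Ereg*, *Hbegf* and *Btc* had a Log2FC of -0.22, -0.33 and -0.06. *Areg* had 0 to 4 reads in each library and was not tested, like *Epgn*, *Nrg3* and *Nrg4*. Among 3 tested ligands of MET, IGF1R and INSR, 0 passed. Of 11 tested genes that bind insulin-like growth factors or control their release, 3 fell and none rose (27.3%, where 29.8% of all genes passed and 12.5% fell), a share near the background. They were *Igfbp4* (Log2FC of -0.21), *Igfbp7* (-0.41) and *Stc2* (-0.68), the last an inhibitor of the protease PAPPA.

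Inside the cell, 8 of 30 tested adaptor, PI3K and AKT genes passed the test, 5 higher and 3 lower (26.7%, against 29.8% of all genes, with 17.3% higher and 12.5% lower; median Log2FC of -0.05), so the group did not exceed the background. *Shc4*, an SHC-family adaptor, rose from a control mean of 2.75 ± 0.561 to a mutant mean of 9.72 ± 0.812 CPM (SD, n = 4 each), a Log2FC of 1.82 (FDR = 9.89e-07 by edgeR). *Sos1*, the exchange factor that links receptors to RAS, rose from 114 ± 8.00 to 185 ± 11.8 CPM (Log2FC of 0.70, FDR = 2.52e-06 by edgeR). The PI3K subunits went apart: the catalytic *Pik3cd* rose (Log2FC of 0.92, FDR = 1.42e-05 by edgeR) and the regulatory *Pik3r3* fell (Log2FC of -0.60, FDR = 1.63e-05 by edgeR). *Pik3cb* also rose, with a Log2FC of 0.50, and *Gab2* and *Pdpk1* fell, with -0.32 and -0.27.

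Of the genes that restrain receptor kinases, 9 of 21 tested passed, with 5 higher and 4 lower (42.9%, against 29.8% of all genes, with 17.3% higher and 12.5% lower). This share was not tested. The median Log2FC was 0.03, and 2 were DEGs (9.52%, against 10.2% of all genes), no more than the background. The ubiquitin ligases *Cbl* (Log2FC of 0.25, FDR = 0.00398 by edgeR) and *Cblb* (Log2FC of 0.47, FDR = 0.000138 by edgeR), which mark activated KIT and EGFR for breakdown, both rose. *Socs2* (0.44), *Ptpn6* (0.63) and *Trib3* (1.09), the last a pseudokinase that binds AKT, rose as well, and *Lrig2* (-0.31), *Ptprf* (-0.26), *Ptprj* (-0.22) and *Socs3* (-0.36) fell. PTPN6 (SHP-1) is a phosphatase of blood cells too, and 4 of 6 tested macrophage markers also rose, where 17.3% of all genes tested did. The macrophage markers summed to 28.5 to 36.7 CPM in control and 40.2 to 49.6 CPM in mutant libraries. Their part in the rise of *Ptpn6* was not tested.

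Among 40 other receptor tyrosine kinases tested, 4 rose and 7 fell (27.5%, against 29.8% of all genes; median Log2FC of -0.08), and 3 were DEGs (7.5%, against 10.2%), so neither count exceeded the background. *Fgfr3* fell, its mean being 34.3 ± 4.13 CPM among controls against 14.0 ± 1.43 CPM among mutants (SD, n = 4 each; Log2FC of -1.30, FDR = 4.57e-07 by edgeR). *Ntrk2*, the BDNF receptor, and *Epha4*, an ephrin receptor, rose with a Log2FC of 0.71 and 0.70 (FDR = 0.00679 and 0.00115 by edgeR). *Csf1r*, the macrophage receptor, rose with the macrophage markers, of which it is one.

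The genes whose levels followed those of *Kit* most closely from library to library, once the mean of each genotype was taken away, were *Abl2*, *Itgb3* and *Ddx19b*, with a Pearson correlation of 0.992, 0.987 and 0.987 over 8 libraries. For *Erbb3* they were *Surf4*, *Ace* and *Rftn1*, with 0.994, 0.993 and 0.984. Among the 14248 genes compared, 155 were above 0.9 with *Kit* and 93 with *Erbb3*, so that with 8 libraries many genes reach such values, and the libraries share their depth and cell makeup.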

How the data were processed

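Reads were trimmed by the authors with Trimmomatic 0.39 and mapped to mm10 with STAR 2.5.2, which also counted reads per gene; annotation and strand setting of the counting are not given in the sources used here. The deposited counts are whole numbers without normalization, 1 file for each library. A deposited signal table (named CPM by the authors) covers 14244 genes, each value being the count over 1 factor per library; its gene set served only as an alternative filter.

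Genes were kept by filterByExpr, libraries scaled by TMM, and genotype effects tested by quasi-likelihood in edgeR 4.0.16 under R 4.3.3, with Benjamini-Hochberg FDR over every tested gene; limma 3.58.1 and DESeq2 1.42.0 served as alternatives. CPM use TMM library sizes. Ratios carried 2 added counts. Positions and exon lengths are from GENCODE vM21 (mm10), and promoters from RefSeq (GRCm38.p6). Of 4 ratios planned for a test, the 2 with *Erbb4* were dropped because it was near 0 reads. Intervals of the Log2FC come from the quasi-likelihood fit and take in the spread between libraries as well as counting error. The fit across all genes was also run on simulated counts, in which the planted differences were larger than those of *Egfr* and *Met*. The ratio tests and the marker scalings were not simulated.

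The 10 genes, the pathway and marker lists and the tests were chosen with earlier results of these data known. Pathway genes were named if they were DEGs with libraries that did not overlap (at most 6 for each list) or are ligands of the 10 genes. *Tgfa*, the other pathway genes that passed the test and single markers were named after their values were seen. *Nrdp1*, an alias of the listed *Rnf41*, and *Gcna* were not matched. Single values of some listed genes are not reported here.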

Additional observations from a re-analysis of the deposited data

Results flagged for a closer look

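In 2 of 26 groups of 4 libraries, 1 library stood far from the other 3 by Dixon's ratio of gap to range (above its 95% critical value), and chance alone marks about 5% of groups. Both were control library 4. For *Egfr* it had 54.2 CPM against 47.4 to 48.4 CPM in the other controls (ratio 0.855), and for *Insr* 102 CPM against 88.1 to 90.3 CPM (ratio 0.847). Without that library the Log2FC of *Egfr* was -0.38 and that of *Insr* 0.08.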

How the results depend on the processing

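Across 20 other settings, *Kit* (Log2FC of 0.74 to 0.88) and *Erbb3* (2.11 to 2.29) kept their direction, and *Kitl* and *Nrg1* stayed below 0 and outside the threshold. The number of the 7 tested genes with an FDR below 0.05, 2 here, was 4 with library size alone, 0 with germ cell marker scaling (edgeR), 4 with pregranulosa marker scaling (added after the data were seen) and 1 to 4 with 1 library left out. With pregranulosa scaling these 4 were other genes, *Kitl* (FDR = 0.0137 by edgeR), *Erbb2*, *Igf1r* and *Insr*, all higher, and *Egfr* and *Met* did not pass. *Erbb2* passed as lower in 11 of the 20 settings, and as higher with pregranulosa scaling. *Insr* turned to -0.015 with library size alone and -0.017 with germ cell marker scaling. Pregranulosa scaling, which moved the median of all genes to 0.39, turned *Kitl* to 0.27, *Erbb2* to 0.21, *Nrg1* to 0.14 and *Igf1r* to 0.24, all below that shift, and brought *Insr* to 0.43, close to it. DEGs numbered 1449 (871 up), and 886 with germ cell marker scaling (472 up), 4242 with no fold-change threshold, 4733 with pregranulosa scaling (4551 up) and 1288 to 1627 with 1 library left out. The difference in the *Egfr* to *Erbb2* ratio was -0.28 to -0.20 and that of *Insr* to *Igf1r* 0.15 to 0.22 with 1 library left out. The causes were not tested.

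Replicate numbers are shared by the genotypes, but same-numbered libraries deviated together weakly (correlation of -0.09 to 0.20 over genes), and 2 control and 3 *Bmpr1a*-cKO libraries correlated best with their own number. With the replicate block there were 1457 DEGs, *Erbb2* had an FDR of 0.0280 by edgeR, and both ratios had p = 0.125 (exact permutation, the smallest 4 pairs allow).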

Other observations

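Markers of other cell types were followed by their summed CPM. Stroma markers ran from 2755 to 3563 CPM in control and 2648 to 3302 CPM in *Bmpr1a*-cKO libraries, endothelial markers from 272 to 318 and 256 to 292 CPM, markers of mesonephric and surface epithelium from 286 to 325 and 269 to 287 CPM, and erythroid markers from 29.9 to 66.3 and 32.5 to 57.3 CPM. The genotypes overlapped in each of these 4 sums.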
